A study of Leucocroton havanensis with 4 samples.

Results

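The comparison described here sets the shoot of Leucocroton havanensis plantlets grown with nickel against the shoot of plantlets grown without it. Its members were the contigs, that is the assembled transcript sequences, with at least 10 reads in either of these libraries. They numbered 55569 of the 65936 contigs listed (84.3%). The species is a nickel-hyperaccumulating Euphorbiaceae shrub endemic to Cuba. Plantlets were kept in vitro on agar-set Murashige and Skoog medium for 6 weeks, and the growth protocol, worded alike for every sample, names 500 mg/L NiSO4, which is taken to apply to the plantlets labelled as grown with nickel. The groups were shoot without nickel, shoot with nickel, root without nickel and root with nickel, with 1 library each, and the labels do not say how many plantlets a library pooled. The shoot library with nickel carries the label of a re-analysis of an earlier deposit and the others do not, so in every shoot difference below the effects of nickel and of library origin cannot be told apart.

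Nickel hyperaccumulators take up the metal by the root, load it into the xylem and hold it in the leaves, mostly in the vacuoles of epidermal cells. In the species studied, transporters of the IREG/ferroportin and ZIP families and small ligands such as citrate, histidine and nicotianamine have been linked to this route, so the shoot is the organ in which storage and detoxification take place. The identifiers in the files are contig numbers without gene names, so none of these functions could be assigned to a member. What can be described is how many shoot transcripts differed, how abundant they were, by how much they differed, and how the same transcripts stood in root. No sequence of a contig was used here.

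The shoot libraries held 84917997 reads without nickel and 98108920 with nickel, and the root libraries 59802565 and 55660570 in the same order. Levels are given as CPM, the read count of a contig scaled to a common library size of 1000000 reads, with library sizes adjusted by TMM (trimmed mean of M-values) over the 4 libraries. Differences are log2 ratios of these levels, with over without nickel, computed with a prior count of 2. A contig was counted as higher or lower where the log2 ratio was at least 2 in size, which is 4-fold, and the exact 95% interval of the ratio excluded folds below 1.5 in that direction. This size rule is not a test: with 1 library per group there was no replicate check, and the intervals cover counting error only.

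Most shoot transcripts stood at like levels in the shoot libraries. Of the members, 73.8% lay within 2-fold, and the median log2 ratio was 0.063, with quartiles of -0.37 and 0.69. Scaling by total counts would move this median to 0.31, so directions below are relative to the TMM scaling. Past the size rule, 3160 contigs were higher with nickel (5.69% of members) and 1312 were lower (2.36%), together 8.05%. The contigs that were higher were mostly rare transcripts, with a median of 0.265 CPM with nickel and 0.014 CPM without. Those that were lower had been more abundant, with a median of 1.14 CPM without nickel and 0.049 CPM with nickel. A median of 0.014 CPM lies under the level of 3 reads in the library without nickel, 0.041 CPM, so for most of the contigs that were higher the size of the difference rests on very few reads in that library.

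In terms of transcript amount, gains and losses were of like size and a few contigs made up much of both. Summed over the contigs past the size rule, 11878 CPM were gained and 14662 CPM were lost with nickel. A single contig made up 32.6% of the loss and another 15.6% of the gain. The 10 contigs of largest change made up 51.3% of the loss and 42.2% of the gain. The contigs that were higher took 0.140% of the reads of shoot without nickel and 1.40% of those with nickel. The contigs that were lower took 1.51% without and 0.282% with nickel. As shares of all reads the gain was thus 1.26 and the loss 1.22 percentage points, so which of them was larger turned with the scaling.

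**Figure D1:**
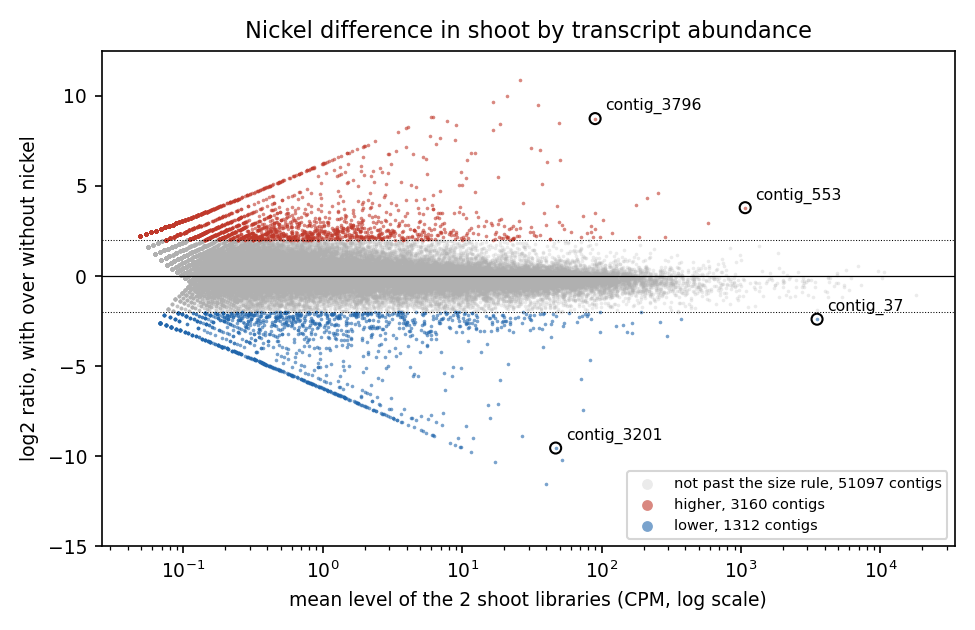
Each point is 1 contig, placed by the mean level of the shoot libraries (CPM, log scale) and by its log2 ratio with over without nickel, with dotted lines at 4-fold. The 3160 contigs that were higher (red) and the 1312 that were lower (blue) thin out towards high abundance, and the 4 named contigs are circled.

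The share of contigs that passed the rule fell with mean shoot level. When the members were divided into 10 equal classes by mean shoot level, 26.6% passed in the lowest class and 1.33% in the highest. In the lowest class, of up to 0.116 CPM, 1341 contigs were higher and 145 lower. Every contig of that class was a member through a single shoot library, mostly the nickel library, so this balance is tied to membership. From the seventh class on, above 2.31 CPM, the numbers were close under this scaling, with 127 higher and 131 lower there and 34 higher and 40 lower in the highest class. The median log2 ratio went from 1.21 in the lowest class to -0.19 in the highest, or from 1.28 to 0.069 by total counts. Over the same classes the root median went from 0 to -0.14. The shoot and root movements are not like for like, because classes and membership were set by shoot reads. A contig without reads in either root library is also given a root log2 ratio of 0.

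Rare contigs entered more often through the nickel library. A count of 10 reads equalled 0.098 CPM in the shoot library with nickel and 0.136 CPM in the library without, so the former admitted contigs at a lower level. Both libraries reached 10 reads for 44542 contigs, the nickel library alone for 9283 and the library without nickel alone for 1744. In the lowest class, 4989 of the 5583 contigs had fewer than 10 reads without nickel and 594 had fewer than 10 with nickel. No contig of that class thus reached 10 reads in both shoot libraries. With a minimum of 0.2 CPM in either library, chosen after the data were seen, 3092 contigs passed the rule, 61.5% of them higher, and the median log2 ratio of all members was -0.0099. The part of the entry level in the excess of rare higher contigs was not tested further. At the edge of membership, the 1367 contigs whose larger shoot count was 10 had a median log2 ratio of 0.62, with 249 higher and 32 lower. The 990 contigs just outside, with a larger count of 9, had a median of 0.51, with 0 higher and 16 lower. That 0 was fixed by the rule. Even 9 reads with nickel against 0 without leave an interval that reaches folds below 1.5. In the other direction, 9 reads could pass.

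**Figure D2:**
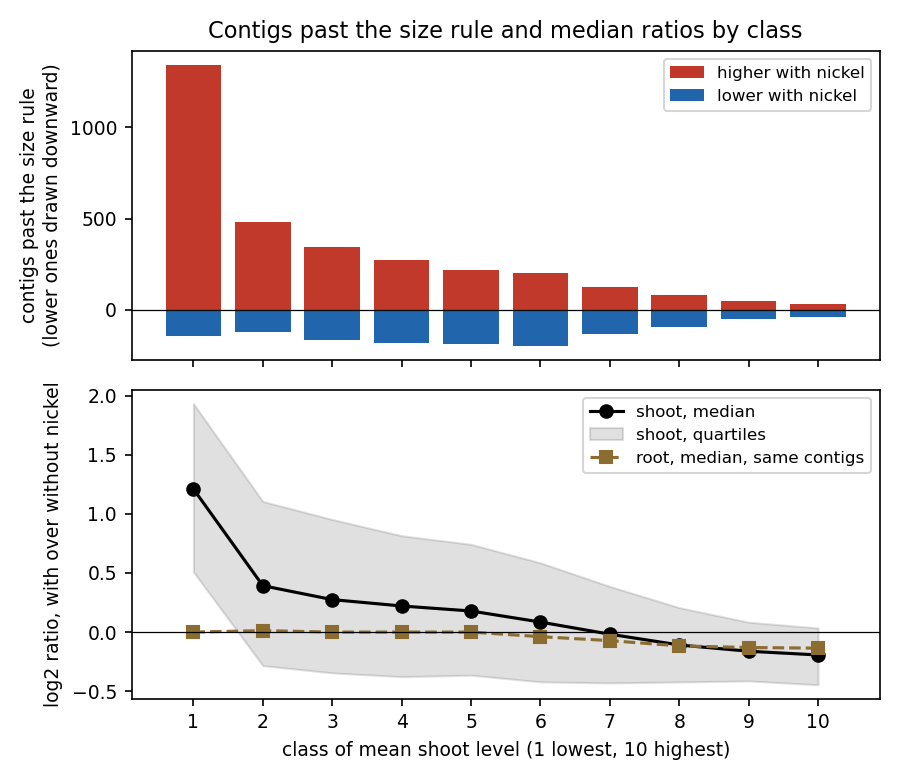
Upper panel, contigs past the size rule in each of 10 equal classes of mean shoot level, with higher ones upward and lower ones downward. Lower panel, median log2 ratio with over without nickel in shoot (black, with the range between quartiles shaded) and in root for the same contigs (brown); the shoot median falls from 1.21 to -0.19 and the root median from 0 to -0.14.

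Some transcripts were seen in a single shoot library, and these are members only through their count in that library. A total of 1363 members had no read without nickel, which allows a level of up to 0.041 CPM there, and their median count with nickel was 14 reads. Of these, 53 reached 1 CPM and 3 reached 10 CPM with nickel. Conversely, 376 members had no read with nickel, which allows up to 0.029 CPM, and their median count without nickel was 48.5 reads, with 141 at 1 CPM or more and 13 at 10 CPM or more. At least 10 reads in a root library were found for 81.4% of all members. The share was 32.1% for the contigs without reads in shoot without nickel (437 contigs), beside 43.3% for the 6799 members read in both shoot libraries whose larger shoot level lay between the quartiles of that set, 0.108 and 0.197 CPM. It was 97.1% for the contigs without reads in shoot with nickel (365 contigs), beside 82.6% for the 17686 members read in both shoot libraries at 0.272 to 1.80 CPM, chosen likewise.

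Among transcripts of at least 10 CPM (mean of the shoot libraries), 12965 in all, counting error is small and a 4-fold difference rests on many reads. Of these, 91.2% lay within 2-fold. The number higher with nickel was 102 (0.787%) and the number lower was 118 (0.910%). The balance turned with the scaling: DESeq2 size factors gave 86 higher and 139 lower, and total counts gave 136 higher and 77 lower. The 102 contigs had a median of 6.19 CPM without and 38.3 CPM with nickel, and in root 10.3 CPM without and 10.0 CPM with nickel. The 118 contigs had a median of 37.3 CPM without and 5.57 CPM with nickel, and in root 26.7 CPM and 24.3 CPM. In both sets the root medians thus lay between the shoot medians.

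Either shoot library could be the one that stood apart from root. Of the 102 abundant contigs that were higher, 52 had only the nickel shoot more than 2-fold above both root libraries, and 27 had only the shoot without nickel more than 2-fold below both. Both held for 19 contigs and neither for 4. Of the 118 that were lower, 61 had only the nickel shoot more than 2-fold below both root libraries, and 46 had only the shoot without nickel more than 2-fold above both, with 8 showing both and 3 neither.

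The largest differences set a high level in 1 shoot library against a low one in the other, which follows largely from how they were chosen. Among contigs of at least 10 CPM, a difference of 32-fold or more was seen for 18 that were higher with nickel and 14 that were lower. The 18 contigs ranged from 20.9 to 179 CPM with nickel and from 0 to 2.05 CPM without. Of these, 13 were at 1 CPM or more in both root libraries and 5 were under 1 CPM in both. The 14 contigs ranged from 21.2 to 146 CPM without nickel and from 0 to 2.63 CPM with nickel. Of these, 10 were at 1 CPM or more in both root libraries and 4 were under 1 CPM in both. Within root, none of the 14 and 1 of the 18 passed the size rule between the libraries with and without nickel. Over all members of at least 10 CPM, 0.0617% were higher and 0.285% lower in root, and 293 of 12965 were under 1 CPM in root without nickel.

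The very abundant transcripts of the shoot were mostly within 4-fold. The 100 contigs of highest mean level took 29.0% of the reads without nickel and 26.6% with nickel, and 85 contigs stood among the 100 most abundant in both libraries. Of the 100, 70 were also past the size rule as higher in shoot than in root without nickel, and none as higher in root. Among all 12965 members of at least 10 CPM, 1601 were higher in shoot and 344 higher in root. The 100 were chosen by shoot level, which favours a preference for shoot. The median log2 ratio of the 100 was -0.37, beside -0.17 for all members of at least 10 CPM. Of the 100, 82 were below 0, or 62 by total counts. In root the median of the same contigs was -0.067. Only 1 of the 100 was higher and 1 lower by the size rule, and these are the first contigs described next.

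Lhav_v2_contig_553 had the largest gain in amount. It stood at 144 CPM (10624 reads) in shoot without nickel and 2000.3 CPM (203434 reads) in shoot with nickel, and moved from rank 1085 to rank 48 by level. Its root levels were 68.5 CPM without and 107 CPM with nickel. Shoot with nickel was the only high library, and shoot without nickel lay above both root libraries. The level in shoot was 13.9-fold higher with nickel (95% exact interval 13.6 to 14.1), and in root 1.57-fold higher (1.51 to 1.63), which did not pass the size rule.

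Lhav_v2_contig_37 had the largest loss in amount and was abundant in every library, ranking 11 by level in shoot without and 79 in shoot with nickel. It stood at 5907 CPM (434601 reads) in shoot without nickel and 1122 CPM (114145 reads) in shoot with nickel, which was 5.26-fold lower (95% exact interval 5.23 to 5.30). Its root levels were 2369 CPM without and 3409 CPM with nickel. The root levels lay between the shoot levels, and the root difference went the other way, 1.44-fold higher with nickel (1.43 to 1.45).

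Lhav_v2_contig_3796 had the largest fold higher among contigs of at least 10 CPM with at least 10 reads in both shoot libraries. It stood at 0.394 CPM (29 reads) in shoot without nickel, at 179 CPM (18241 reads) in shoot with nickel and in root at 87.8 CPM without and 59.3 CPM with nickel. Shoot without nickel was the only low library. The shoot level was 455-fold higher with nickel (95% exact interval 317 to 680), and the root level was 1.48-fold lower.

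Lhav_v2_contig_3201 had the largest fold lower under the same conditions. It stood at 93.6 CPM (6885 reads) in shoot without nickel, at 0.098 CPM (10 reads) in shoot with nickel and in root at 25.5 CPM without and 22.4 CPM with nickel. Shoot with nickel was the only low library. The shoot level was 952-fold lower with nickel (95% exact interval 517 to 1986), and the root level was 1.14-fold lower.

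**Figure D3:**
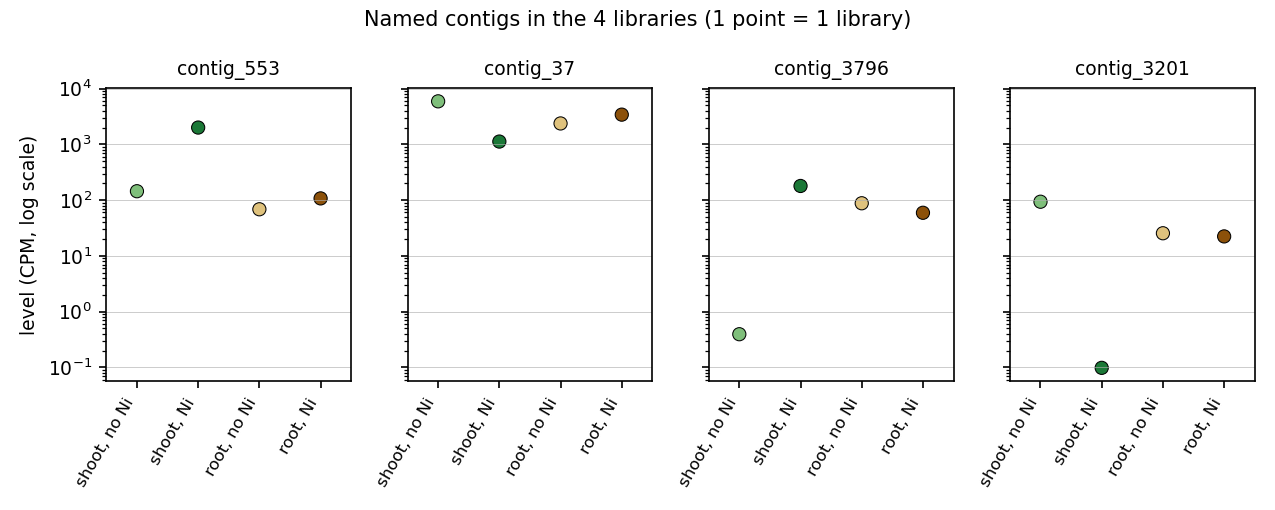
Levels (CPM, log scale) of the 4 named contigs, 1 point per library. Shoot with nickel is the highest library for Lhav_v2_contig_553 (2000.3 CPM) and the lowest for Lhav_v2_contig_37 (1122 CPM) and Lhav_v2_contig_3201 (0.098 CPM), whereas shoot without nickel is the lowest for Lhav_v2_contig_3796 (0.394 CPM).

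The changes were then set beside organ preference, taken from root and shoot without nickel by the same size rule. Of the members, 4771 preferred root (8.59%), 6141 preferred shoot (11.1%) and 44657 lay between. Among root-preferring contigs, 1014 were higher with nickel in shoot (21.3%) and 200 lower (4.19%), with a median log2 ratio of 0.69. Among shoot-preferring contigs, 104 were higher (1.69%) and 254 lower (4.14%), with a median of -0.27. Those between had 2042 higher (4.57%), 858 lower (1.92%) and a median of 0.070.

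The organ ratio and the nickel ratio share a library, shoot without nickel, and a low value there raises both the preference for root and the nickel ratio. When organ preference was taken instead from the summed reads of both root and both shoot libraries, over their summed library sizes, the balance turned. Both shoot libraries then entered the organ ratio, though not alike, since the deeper nickel library weighed more. Root-preferring contigs, now 3393, were then higher in 188 cases (5.54%) and lower in 398 (11.7%). Shoot-preferring contigs, now 6377, were higher in 566 cases (8.88%) and lower in 120 (1.88%). With organ preference from the libraries with nickel, chosen after the data were seen, 109 root-preferring contigs were higher and 931 lower, and 985 shoot-preferring contigs were higher and 59 lower. No relation between organ preference and the nickel difference is therefore read from the counts.

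**Figure D4:**
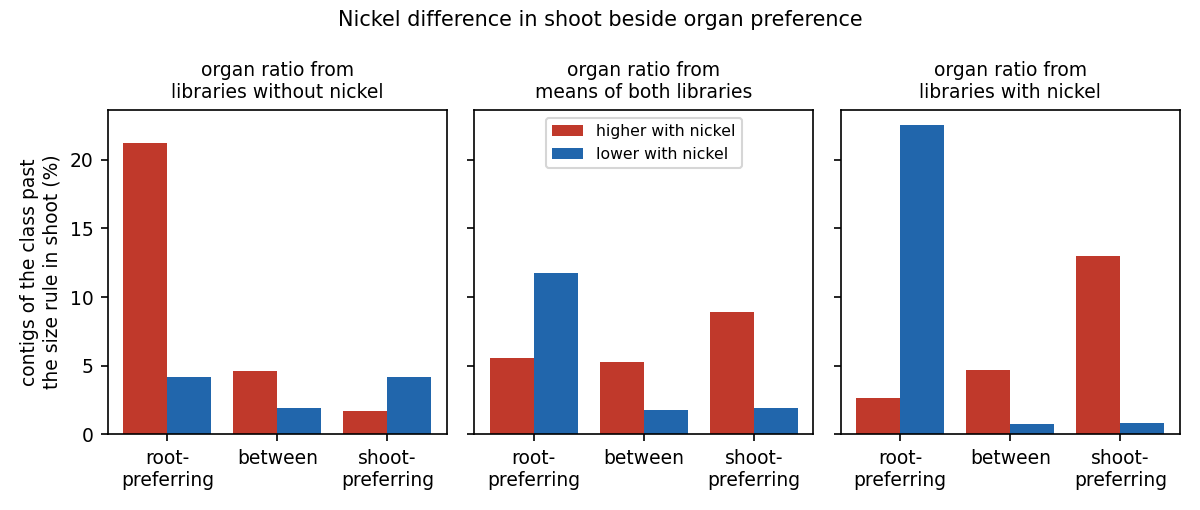
Percent of the root-preferring, between and shoot-preferring members that were higher (red) or lower (blue) with nickel in shoot. Organ preference was taken from the libraries without nickel, from the summed reads of both (panel titled means of both libraries), or from the libraries with nickel. The percent higher among root-preferring contigs goes from 21.3 to 5.54 to 2.64 across the panels.

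The level in root without nickel is a measure that neither shoot library enters. Among contigs of at least 10 CPM in shoot, 293 were under 1 CPM in root without nickel, of which 13 were higher with nickel (4.44%) and 14 lower (4.78%). At 1 to 10 CPM in root, 37 of 1967 were higher (1.88%) and 23 lower (1.17%). At 10 CPM or more in root, 52 of 10705 were higher (0.486%) and 81 lower (0.757%). Higher and lower contigs were thus near equal in number at the lowest root level, with more higher at the middle level and more lower at the highest. The smaller the root level, the larger was the share of contigs that differed in either direction. Entry was by the mean of the shoot libraries, so 1 high shoot library could be enough, and its part in these shares was not tested.

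The abundant contigs of each organ class show what the levels were. The 34 root-preferring contigs that were higher with nickel had medians of 3.28 CPM in shoot without nickel, of 48.8 CPM in shoot with nickel and in root of 29.2 CPM without and 32.6 CPM with nickel. With nickel the shoot level was above both root libraries for 21 of them, between the root libraries for 6 and below both for 7. The 37 shoot-preferring contigs that were lower with nickel had medians of 41.5 CPM without and 4.68 CPM with nickel in shoot, and 2.42 and 2.06 CPM in root. For 26 of these the shoot with nickel was still above both root libraries. The 77 contigs between the organs that were lower had medians of 37.0 CPM without and 5.58 CPM with nickel in shoot and of 39.3 and 49.2 CPM in root, and in 76 of them shoot with nickel was below both root libraries. The 51 contigs between the organs that were higher had medians of 6.97 and 35.1 CPM in shoot and of 12.03 and 9.78 CPM in root, and in all 51 shoot with nickel was above both root libraries. For the contigs between the organs this place beyond root is nearly fixed by the choice, since they were near root without nickel and then differed by 4-fold or more.

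Transcripts strongly tied to root, chosen as far lower in shoot without nickel, were mostly near-absent from shoot with nickel as well. Of the series' contigs, 207 were past the size rule as higher in root than in shoot without nickel, with at least 10 CPM in root and at least 100-fold the shoot level. In shoot with nickel their median level was 0.234% of that in root without nickel, and 59 had no read. In shoot without nickel, which took part in choosing them, the median was 0.160% and 65 had no read. Only 6 of the 207 exceeded 10% of the root level in shoot with nickel.

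The same members were followed between the root libraries, which share no library with the shoot ones. In root, 603 members were higher with nickel (1.09%) and 427 lower (0.768%), and 83.4% lay within 2-fold, against 73.8% in shoot. These shares are not like for like, since members were chosen by shoot reads and 81.4% had at least 10 reads in a root library. A contig without reads in either root library is given a root log2 ratio of 0, so it counts as within 2-fold and cannot pass the rule. Of the 3160 contigs higher in shoot, 58 were higher in root (1.84% of these and 9.62% of the 603), and 62 were lower in root (1.96% of these and 14.5% of the 427). Of the 1312 lower in shoot, 17 were lower in root (1.30% of these and 3.98% of the 427), and 43 were higher in root (3.28% of these and 7.13% of the 603). The median root log2 ratio was 0 for the contigs higher in shoot and 0.063 for those lower in shoot, beside -0.039 for all members. The contigs higher in shoot had median root levels of 0.100 CPM without and 0.129 CPM with nickel. Both lie under the level of 10 reads in these root libraries, 0.167 and 0.162 CPM, so that median of 0 is not read as a lack of change. Whether the nickel difference depends on the organ was not tested.

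Among members of at least 10 CPM, 8 were higher in root with nickel (0.0617%) and 37 lower (0.285%), and 97.3% lay within 2-fold in root. Of the 102 contigs higher in shoot, 1 was higher (0.980%) and 5 were lower (4.90%) in root, with a median root log2 ratio of -0.027. Of the 118 lower in shoot, 1 was higher (0.847%) and 2 were lower (1.69%) in root, with a median of 0. Most of these contigs did not pass the rule in root, as held for members of this abundance in general. The shares that did pass were larger than over all such members, though they rest on few contigs.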

How the data were processed

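RNA-seq libraries of root and shoot, with and without nickel, were analysed from read counts per contig that the authors deposited, 1 file per library; per the file headers each column holds 1 library, and the values are raw counts, whole numbers that were not normalized. Per the labels' protocols, RNA was extracted with TRIzol LS, treated with DNase and made into stranded polyA libraries. The sources used here do not give the aligner, counter or assembly, or the treatment of reads that match several similar contigs.

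TMM scaling (edgeR 4.0.16, R 4.3.3) used the 60628 contigs with at least 10 reads in any library, with factors of 0.867 for shoot without and 1.04 for shoot with nickel. DESeq2 1.42.0 gave the alternative size factors. Exact intervals are conditional binomial (Clopper-Pearson, scipy 1.17.1). No test was made between single libraries, and the additive edgeR model over both organs was left out because it estimates a nickel difference common to root and shoot. Even numbers made up 59.0% (without nickel) and 58.7% (with nickel) of the shoot counts from 1 to 20, so intervals may be too narrow where both reads of a pair were counted. A zero was given a limit of 3 reads per library. The calculation was checked on simulated counts that held counting error only. Changes were planted only in contigs with a mean well above the minimum of 10 reads, so rare contigs were not covered.

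Members, classes and rules were chosen with earlier results of these data known. The named contigs were those past the size rule with the largest gain and loss in CPM, and, among those with at least 10 reads in both shoot libraries and a mean of at least 10 CPM, with the largest fold in each direction.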

Additional observations from a re-analysis of the deposited data

Results flagged for a closer look

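These results are listed because nickel-grown and nickel-free libraries differed in opposite directions in shoot and root. With 1 library per group, the difference between organs was not tested. The log2 ratio in shoot minus that in root was -2.92 for Lhav_v2_contig_37, lower in shoot and 1.44-fold higher in root. It was 9.30 for Lhav_v2_contig_3796, higher in shoot and 1.48-fold lower in root. Neither of these root differences passed the size rule. By the size rule in both organs, 62 members were higher in shoot and lower in root (1.96% of those higher in shoot). Another 43 were lower in shoot and higher in root (3.28% of those lower in shoot). Over all members 0.768% were lower and 1.09% higher in root. In the same direction, 58 were higher and 17 lower in both organs.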

How the results depend on the processing

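The counts and medians depended on how rare contigs were treated. As reported, 4472 contigs passed the size rule, 70.7% of them higher, and the median log2 ratio was 0.063. Of 81 recalculations of counts, shares and medians, 36 moved a count by less than 1.5 times, or a share or median by no more than its 95% binomial limits (0.1 for class medians). With DESeq2 size factors, 64.9% were higher, the median was -0.047 and that of the highest abundance class was -0.31. With total counts, 78.7% were higher, the median was 0.31, that of the highest class was 0.069, 77 contigs of at least 10 CPM were lower, and 160 shoot-preferring contigs were lower. A minimum of 1 read gave 68.9% higher and a median of 0.097. A minimum of 50 reads gave 1886 contigs, 56.3% higher and a median of -0.046. A mean of at least 10 CPM gave 220 contigs, 46.4% higher and a median of -0.17. Under that limit 34 root-preferring contigs were higher and 4 lower, 51 between the organs were higher and 77 lower, and 17 shoot-preferring contigs were higher and 37 lower. A prior count of 5 gave 2271 contigs, 56.1% higher. Thinning of the deeper library gave 67.9% higher and a median of 0.047. Intervals from halved counts gave 2846 contigs, 58.6% higher, and an 8-fold threshold 1284, 53.0% higher. A minimum of 0.2 CPM, added after the data were seen, gave 61.5% higher and a median of -0.0099. Fewer contigs enter under stricter minimums; the cause of the other shifts was not tested.

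With organ preference from the summed reads of both libraries, 188 root-preferring contigs were higher and 398 lower, and 566 shoot-preferring contigs were higher and 120 lower. At 10-fold organ preference these numbers were 446, 76, 43 and 114. With the libraries with nickel, added after the data were seen, they were 109, 931, 985 and 59, and 322 contigs between the organs were lower. The 4 named contigs kept their direction and passed the size rule in all 12 recalculations.

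Each group held 1 library, so leaving out a replicate would remove a group and was not run. Pairing by replicate number was not possible because the groups share a single replicate number. The additive model over both organs was left out by choice, as described above. Counting error limits the rare contigs, and for abundant contigs the variation between plantlets is unknown.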
